A study of Mus musculus with 2 samples.

Results

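Type 1 conventional dendritic cells of the postischemic mouse kidney are described here. They were selected on their own counts of *Xcr1* and *Clec9a* in 2 single-cell RNA libraries, one from a *Cre*- mouse and one from a mouse labelled PHDTiEC. The rule found 186 such cells among 17701 kept barcodes, 82 of 8468 from the *Cre*- mouse and 104 of 9233 from the PHDTiEC mouse. A barcode was kept with 500 to 100000 UMIs (unique molecular identifiers, each standing for 1 captured RNA molecule), at least 200 genes, at most 50% mitochondrial UMIs and log10 genes divided by log10 UMIs no lower than 0.8. A type 1 dendritic cell had at least 2 UMIs of *Xcr1* and *Clec9a* together, fewer than 10 UMIs of the macrophage genes *C1qa*, *C1qb* and *C1qc* per 10000 UMIs, and no UMI of the T cell gene *Cd3e*. They were set against Cd209a cells, which had at least 2 *Cd209a* UMIs, fewer than 2 of *Xcr1* and *Clec9a*, and the same limits on *C1q* and *Cd3e*. Cd209a cells numbered 62 for *Cre*- and 80 for PHDTiEC.

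Both mice were male, 8 to 10 weeks old, and had 1 renal artery clamped for 25 minutes. Tamoxifen, 4 injections of 3 mg, was begun after the clamp, and the clamped kidney was taken on day 14. The PHDTiEC genotype is *Cdh5-CreERT2* with floxed *Phd1*, *Phd2* and *Phd3* (*Egln2*, *Egln1* and *Egln3*). The label of the control says only *Cre*-, and the study used *Cre*- littermates given the same clamp and tamoxifen. The *Cdh5* promoter drives the recombinase in endothelium, so dendritic cells are not the cells in which the floxed genes were targeted. Each genotype is 1 library of 1 mouse. Differences between them therefore have no replicate check, no test was made, and every interval below is a 95% interval that covers counting error only.

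Type 1 dendritic cells take up material from dying cells through receptors such as CLEC9A and present it to CD8 T cells on MHC class I, which is called cross-presentation. They arise from FLT3-dependent precursors, need the transcription factors IRF8 and BATF3, and find XCL1-secreting lymphocytes through the chemokine receptor XCR1. Type 2 dendritic cells depend more on IRF4 and present mainly to CD4 T cells. Either kind can mature, at which point it induces *Ccr7* and *Fscn1* and leaves the tissue for the lymph node.

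*Xcr1* lies on mouse chromosome 9 (mm10, 123852315 to 123862029, minus strand) and *Clec9a* on chromosome 6 (129408862 to 129424763, plus strand). Since these genes chose the cells, their levels are a description and no finding. A cell held a median of 9 UMIs of the pair for *Cre*- (highest 28) and of 7 for PHDTiEC (highest 23). Both genes were seen in 67 of 82 and in 82 of 104 cells, *Xcr1* alone in 5 and 17, and *Clec9a* alone in 10 and 5. Just inside the limit, 11 and 6 cells held exactly 2 UMIs of the pair. Just outside it, 30 and 27 barcodes that met the other limits held exactly 1. The marker list of type 1 dendritic cells, which leaves out the rule's genes, summed to 4042 and 2662 UMIs per 1000000 (CPM) in the cells with exactly 2 UMIs and to 2069 and 2137 CPM in the barcodes with exactly 1. It summed to 8120 and 8869 CPM in cells with 6 or more. *Cd24a* alone held 53 of 610 (*Cre*-) and 175 of 415 (PHDTiEC) of the list's UMIs in cells with exactly 2. In barcodes with exactly 1 it held 603 of 1495 and 538 of 1147. Distal nephron markers stood at 1371 and 4689 CPM in cells with exactly 2, and at 5760 and 3256 CPM in barcodes with exactly 1. In cells with 6 or more they stood at 309 and 157 CPM. The part of tubular RNA in these sums was not tested. The *C1q* limit lay in an empty range. The highest selected cell had 3.05 *C1q* UMIs per 10000 in the *Cre*- library and 2.39 in the other, and the lowest of the 18 and 16 barcodes that only this limit removed had 11.4 and 18.6.

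**Figure D1:**
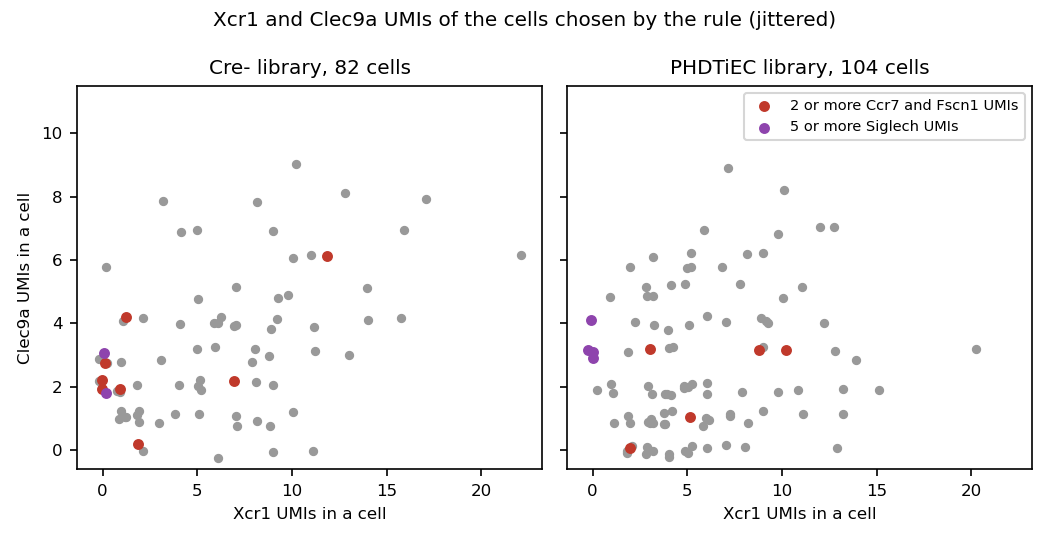
Each point is 1 selected cell, with its Xcr1 UMIs on the horizontal axis and its Clec9a UMIs on the vertical axis, moved slightly so that points do not cover each other. Red marks cells with 2 or more Ccr7 and Fscn1 UMIs (8 in the Cre- library, 5 in PHDTiEC) and purple marks cells with 5 or more Siglech UMIs (2 and 4), which all lie at 0 Xcr1 UMIs.

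The median depth of a selected cell was 13331 UMIs for *Cre*- (1407 to 75220) and 12942 for PHDTiEC (2703 to 77062), against medians of 7414.5 and 7815 over all kept barcodes. In sum they held 1236139 and 1548690 UMIs, and the Cd209a cells 709854 and 953701. The median mitochondrial share of a selected cell was 2.93% and 2.11%. The libraries shared 27 kept barcode sequences, none of them a selected cell. Proximal tubule barcodes, taken as those with 5 or more *Slc34a1* UMIs and no *Ptprc* UMI, served as a background for free RNA. The *Ptprc* limit leaves out barcodes that had picked up this leukocyte RNA, so free leukocyte RNA may be understated. The proximal tubule barcodes numbered 430 and 561, with median depths of 19131.5 and 18259 UMIs. *Xcr1* was seen in 2 and 1 of them and *Clec9a* in 1 and 0.

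Type 1 dendritic cells made up 0.968% of kept barcodes from the *Cre*- mouse (0.771% to 1.20% by the Clopper-Pearson method) and 1.13% in the library labelled PHDTiEC (0.921% to 1.36%). The ratio of the shares was 1.16, with an interval of 0.862 to 1.57 that includes 1. Cd209a cells made up 0.732% and 0.866%. Of both dendritic cell sets together, type 1 cells were 56.9% (48.4% to 65.2%) and 56.5% (49.0% to 63.8%). A difference in their number was thus not detectable at this depth by any of these shares.

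The label was checked on markers that the rule did not use. Of 22 such genes, 21 had enough counts to compare, meaning at least 20 UMIs over both cell sets in each library. Of these, 19 were at least 2-fold higher than in Cd209a cells in both libraries and none was lower. Over all 7240 genes compared in this way, 3.58% were higher and 4.72% lower. The median log2 ratio of the list was 3.00 in the *Cre*- library and 3.03 in the other, and that of all genes compared was 0.03 and -0.06.

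*Itgae* encodes CD103, the integrin that binds E-cadherin. It was at 241 CPM (298 UMIs, 59 of 82 cells) in type 1 cells of the *Cre*- library and at 249 CPM (385 UMIs, 87 of 104 cells) in those of the other library. Cd209a cells held 1 and 2 *Itgae* UMIs in all. *Flt3*, the growth factor receptor, was at 121 and 126 CPM against 35.2 and 23.1 CPM in Cd209a cells. *Flt3* was therefore higher in type 1 cells but not confined to them, with a UMI in 64 of 82 and 83 of 104 type 1 cells and in 17 of 62 and 19 of 80 Cd209a cells. No proximal tubule barcode held a *Flt3* UMI, and *Itgae* was seen in 5 of 430 and 9 of 561 of them. Thinned to 2000 UMIs a cell, which left out 1 shallower *Cre*- cell, *Itgae* was still seen in 35.8% and 38.5% of type 1 cells and in 0 of 62 and 0 of 80 Cd209a cells.

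**Figure D2:**
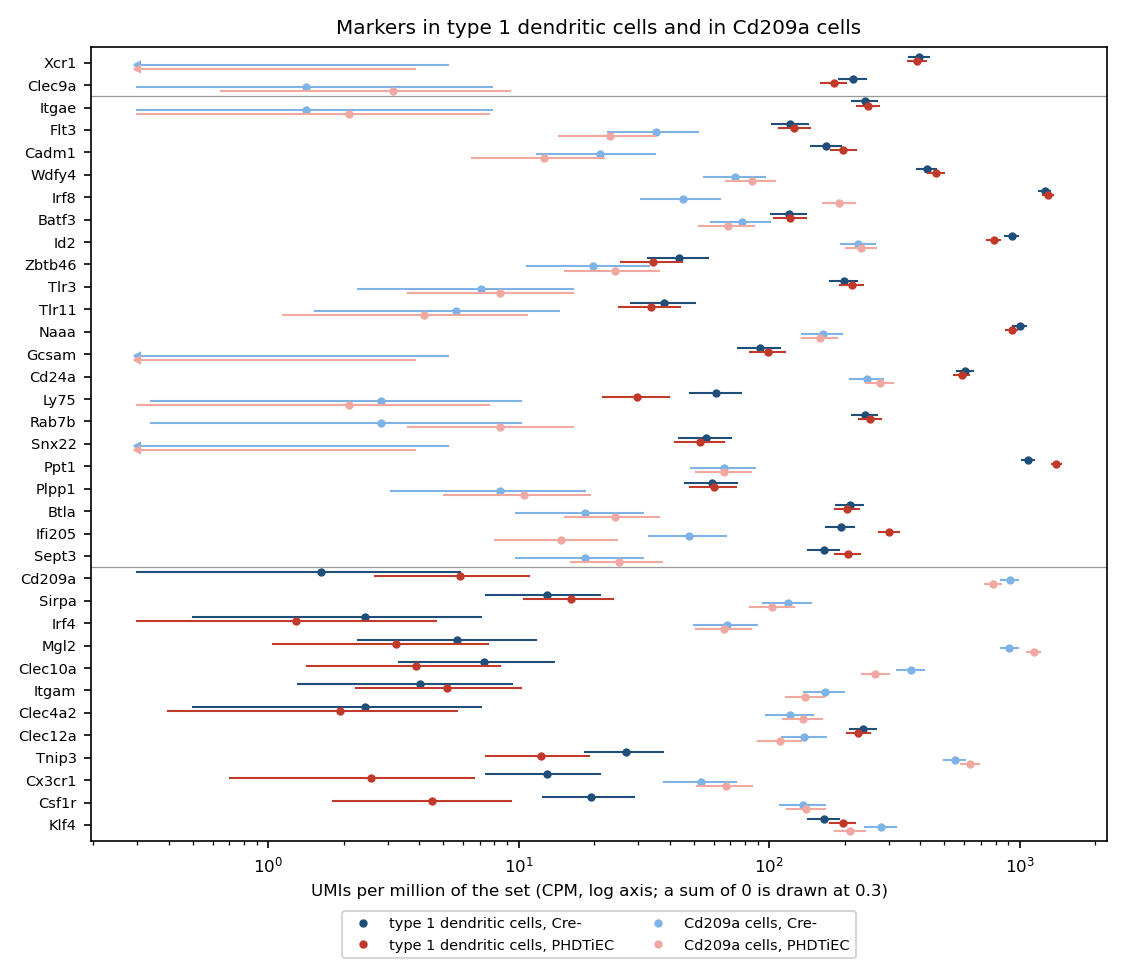
Level of each marker in CPM (log axis) in type 1 dendritic cells and Cd209a cells of both libraries, with 95% Poisson bars. From top to bottom stand the 2 genes of the rule, the type 1 list and the type 2 list. Irf8 stood at 1259 and 1297 CPM in type 1 cells against 45.1 and 190 in Cd209a cells, and Mgl2 at 5.66 and 3.23 against 907 and 1137.

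Among the transcription factors, *Irf8* was at 1259 CPM (95% Poisson interval 1197 to 1323) in the *Cre*- and at 1297 CPM (1240 to 1355) in the PHDTiEC type 1 cells, so the intervals overlap. In Cd209a cells it was at 45.1 and 190 CPM. *Id2* was at 929 and 786 CPM against 227 and 233. *Batf3* was the exception, with 120 and 121 CPM in type 1 cells and 77.5 and 68.2 CPM in Cd209a cells, under the 2-fold limit in both libraries. *Zbtb46*, a factor of conventional dendritic cells in general, passed it in the *Cre*- library (43.7 against 19.7 CPM) and not in the other (34.2 against 24.1 CPM).

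Of 8 genes of nucleic acid and microbial sensing compared with Cd209a cells, 2 were higher in type 1 cells of both libraries. Of the rest, 1 was lower and 5 were neither, beside 3.58% higher and 4.72% lower among all genes compared. *Tlr3*, the sensor of double-stranded RNA, was at 198 and 213 CPM against 7.04 and 8.39 CPM in Cd209a cells. *Tlr11*, a sensor of protozoan and bacterial protein, was at 38.0 and 33.6 CPM against 5.63 and 4.19. *Tlr2* went the other way, with 12.9 and 9.04 CPM in type 1 cells and 64.8 and 58.7 in Cd209a cells. *Cxcr3*, a receptor for interferon-induced chemokines, had 70 and 83 UMIs in type 1 cells and 0 and 2 in Cd209a cells. *Gcsam* and *Snx22* were at 0 UMIs in the Cd209a cells of both libraries, against 113 and 153 and against 69 and 82 UMIs in type 1 cells. Measured against a floor of 3 UMIs per library, *Gcsam* was at least 4.43 (*Cre*-) and 4.97 (PHDTiEC) log2 units higher in type 1 cells.

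The 15 genes ranked highest in type 1 over Cd209a cells included *Dnase1l3*, an extracellular nuclease (113 and 162 CPM against 1.41 and 1.05), the transcript *Gpr141b* (73.6 and 105 CPM against 0 UMIs in both libraries) and, from the type 1 list, *Ppt1*, a lysosomal thioesterase (1079 and 1398 CPM against 66.2 and 66.1). *Gm43914*, *Gm36723* and *Bcl2l14* were among the same 15. So were *Sprr2f* and *Spink8*, but 57 of 60 and 81 of 93 *Sprr2f* UMIs came from 1 cell in each library, and both genes turned lower in PHDTiEC type 1 cells than in Cd209a cells once barcodes with 3 or more UMIs of other lineages were left out (log2 ratio -0.21 for each). The largest differences in the other direction were in the C-type lectins *Mgl2*, *Clec10a*, *Clec4a2* and *Clec4b1*, the mannose receptor *Mrc1*, *Il1rl1*, *Mmp12*, *Asgr2*, *Gda*, *Ccl9*, *Gm15987*, *Retnla*, *Tnfsf9* and *S100a4*. *Cd209a*, which chose the other set, was in this group by design. *S100a4*, a calcium-binding protein of migrating cells, was at 71.2 and 5.81 CPM in type 1 cells and at 2661 and 1957 CPM in Cd209a cells, and 43.2% of its 88 UMIs in *Cre*- type 1 cells came from 1 cell.

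Markers of type 2 dendritic cells gave the reverse picture. Of 12 compared, 10 were at least 2-fold lower in type 1 than in Cd209a cells in both libraries and none was higher. Over all genes compared between the cell sets, 4.72% were lower and 3.58% higher. The list medians were -4.58 and -5.32. *Cd209a* itself is among the 10 and in the medians, and it is lower by design because it chose the other set. *Irf4* had 3 and 2 UMIs in type 1 cells and 48 and 63 in Cd209a cells. *Clec12a* and *Klf4* were the exceptions, *Clec12a* with 237 and 227 CPM in type 1 cells against 138 and 110.

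Markers of other cell types, summed over type 1 cells, first *Cre*- and then PHDTiEC, were at 342 and 373 CPM for 12 macrophage genes (*Cd163* at 0), against 800 and 906 CPM in Cd209a cells. Those of 6 monocyte genes were 889 and 615 CPM against 751 and 1038, and those of 5 neutrophil genes (*Ly6g* at 0) 99.5 and 129 CPM against 196 and 7.34. T cell genes (7, with *Cd3e* and *Trbc2* at 0) came to 3.24 and 14.9 CPM against 2.82 and 24.1, 5 B cell genes to 3.24 and 14.9 CPM against 4.23 and 7.34, and natural killer cell genes to 0.809 and 3.23 CPM against 4.23 and 1.05. Endothelial genes came to 8.09 and 14.2 CPM against 29.6 and 54.5, and stromal genes to 14.6 and 46.5 CPM against 62.0 and 8.39.

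Short promoter windows of 4 genes that were higher in type 1 cells are shown because each holds either GAAA, any 2 bases and GAAA again, or TGANTCA, the letters recognised by the interferon regulatory factor family and by AP-1 factors such as BATF3 and its partners. The windows are RefSeq sequence (GRCm38.p6) upstream of the transcript start, 5′ to 3′ on the strand of the gene, with the motif in capitals and up to 20 bases on each side.
*Tlr11*, chr14:50357772-50357821, plus strand: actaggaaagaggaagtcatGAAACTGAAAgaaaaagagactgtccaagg
*Gpr141b*, chr13:19732952-19732983, minus strand: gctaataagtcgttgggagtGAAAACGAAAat
*Ifi205*, chr1:174031860-174031909, minus strand: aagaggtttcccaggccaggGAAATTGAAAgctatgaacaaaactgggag
*Cd207*, chr6:83677858-83677884, minus strand: tgacaaagtggcctgcttttTGACTCA
Both motifs were searched on both strands in the 250 bases before the start, and neither letter string contains the other. The paired GAAA motif was held by 3.04% of all 27025 promoters in the table, by 10 of the 212 found for genes higher in type 1 cells (4.72%) and by 18 of the 271 found for genes lower in them (6.64%). TGANTCA was held by 6.87% of all promoters, 6.60% of the higher and 7.75% of the lower genes. Among all genes compared between the cell sets, 2.95% of the promoters found held the paired GAAA motif and 4.11% held TGANTCA. The table held 16 of the 22 list genes. Of these, *Tlr11* and *Ifi205* had the first motif and *Zbtb46* the second. A match is a description of letters and not of binding.

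Between the libraries, the identity genes of type 1 cells stood at nearly the same level. With at least 20 UMIs over both libraries, 8581 genes were compared, and 1.5-fold was used as the limit. Of these, 12.5% were higher and 8.01% lower in the library labelled PHDTiEC. Of the 21 list genes compared, 19 lay within 1.5-fold, 1 was higher and 1 lower. The median log2 ratio of the list, PHDTiEC over *Cre*-, was 0.04, and that of all genes compared was 0.05. *Itgae* differed by 0.04 (-0.18 to 0.27), *Flt3* by 0.05 (-0.26 to 0.37) and *Irf8* by 0.04 (-0.05 to 0.14) log2 units. *Ifi205*, an interferon-inducible gene, was the one above the limit, at 193 CPM in the *Cre*- and 301 CPM in the PHDTiEC cells (log2 ratio 0.64, 0.42 to 0.88). It was seen in 63 of 82 and 91 of 104 cells. In Cd209a cells *Ifi205* went the other way, at 47.9 CPM for *Cre*- and 14.7 CPM for PHDTiEC, in 21 of 62 and 7 of 80 cells. *Ly75*, which encodes the endocytic receptor DEC-205, was the one below it, at 61.5 and 29.7 CPM (log2 ratio -1.05, -1.61 to -0.50). A single *Cre*- cell held 23.7% of the *Ly75* UMIs. The 8 *Cre*- cells with 2 or more *Ccr7* and *Fscn1* UMIs held 40 of the 76, and in the members without such cells *Ly75* was at 32.0 and 30.5 CPM.

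*Cd207*, which encodes the lectin langerin, differed in how many cells carried it. It was chosen after its values were seen. *Cd207* was found in 18 of 82 *Cre*- cells (22.0%, 13.6% to 32.5%) and in 48 of 104 PHDTiEC cells (46.2%, 36.3% to 56.2%), at 49.3 and 87.2 CPM. After thinning to 2000 UMIs the shares were 7.41% (2.77% to 15.4%) and 22.1% (14.6% to 31.3%). Cd209a cells had 0 and 1 *Cd207* UMIs, and no proximal tubule barcode had one. *Ifi202b*, also picked after the fact, was at 30 UMIs in 15 of 82 *Cre*- cells and at 0 in 104 PHDTiEC cells. All other kept barcodes held 1312 *Ifi202b* UMIs for *Cre*- and 34 for PHDTiEC. *Ifi205* and *Ifi202b* belong to a family of similar genes between which the counting could split reads, and this was not tested.

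**Figure D3:**
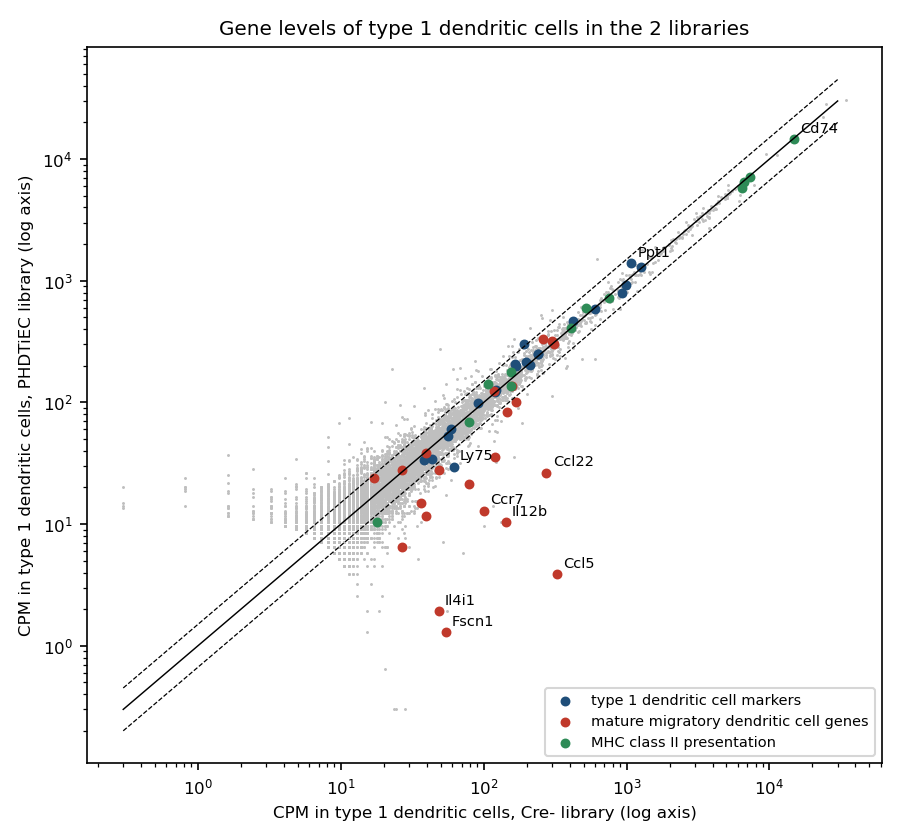
Each grey point is 1 of the 8581 genes with 20 or more UMIs in type 1 dendritic cells, with its CPM in the Cre- library and in the PHDTiEC library on log axes. The solid line marks equal levels and the dashed lines 1.5-fold. Of the type 1 markers (blue) 19 of 21, and of the MHC class II genes (green) 11 of 12, lie between the dashed lines, while Ccl5, Il12b, Ccl22, Ccr7, Fscn1 and Il4i1 (red) lie far below it.

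The antigen presentation genes were close in both libraries. Of 12 MHC class II genes, 11 were within 1.5-fold and 1 was lower, beside 12.5% higher and 8.01% lower among all genes compared. The list's median log2 ratio was -0.05. *Cd74*, the invariant chain, was at 14834 and 14630 CPM, and *H2-Aa* at 6647 and 6471 CPM. In Cd209a cells *Cd74* was at 20215 and 18289 CPM, and *Ctss*, the protease that trims the invariant chain, at 1309 and 1316 CPM against 407 and 408 CPM in type 1 cells. Of 16 MHC class I and cross-presentation genes, 15 were within the limit and 1, *Sec22b*, was higher, with 19 and 38 UMIs. The list's median was -0.23. *B2m* was at 1448 and 1141 CPM (-0.34, -0.44 to -0.25) and *Psmb8*, an immunoproteasome subunit, at 1011 and 804 CPM (-0.33, -0.45 to -0.22). Against Cd209a cells, 4 of the 16 were at least 2-fold higher in type 1 cells of both libraries, namely *Tap1*, *Tap2*, *Psmb9* and *Rab43*. Over all genes compared between the cell sets, 3.58% were higher and 4.72% lower. *Psmb9* stood at 564 and 462 CPM against 182 and 108.

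Genes of mature, migrating dendritic cells were lower in the library labelled PHDTiEC. Of 22 compared, 14 were lower, 8 lay within 1.5-fold and none was higher, and the median log2 ratio was -1.05. Among all genes compared, 8.01% were lower and 12.5% higher. *Ccr7*, the receptor that guides migration to the lymph node, was at 100 CPM (124 UMIs) in *Cre*- and at 12.9 CPM (20 UMIs) in PHDTiEC cells. *Fscn1*, the actin-bundling protein of dendrites, had 67 and 2 UMIs. *Il12b*, which encodes the shared p40 chain of IL-12 and IL-23, had 176 and 16 UMIs, and *Il4i1* had 60 and 3. *Ccl22*, a ligand of CCR4, had 340 and 41 UMIs. *Ccl5* had 405 UMIs in the *Cre*- and 6 in the PHDTiEC cells. *Relb*, an NF-kB subunit of maturing dendritic cells, was at 79.3 and 21.3 CPM. *Cd83*, *Cd86*, *Cd274* and *Ccl17* of the same list were within 1.5-fold, with *Cd86* at 119 and 125 CPM and *Cd83* at 301 and 321 CPM. For *Ccl17*, single cells held 278 *Cre*- and 234 PHDTiEC UMIs, and outside the mature cells it was at 30.2 and 283 CPM.

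Few cells held these UMIs. In all, 8 of 82 *Cre*- cells (9.76%, 4.31% to 18.3%) and 5 of 104 PHDTiEC cells (4.81%, 1.58% to 10.9%) held 2 or more *Ccr7* and *Fscn1* UMIs, and the intervals overlap. With 5 or more, the numbers were 7 and 2. In the 8 *Cre*- cells *Ccr7* ranged from 2 to 28 UMIs and *Fscn1* from 0 to 25. In the 5 PHDTiEC cells *Ccr7* ranged from 2 to 8 UMIs and *Fscn1* was at 0 in all of them. Single cells held 362 of the 405 *Ccl5* UMIs, 224 of the 340 *Ccl22* UMIs and 88 of the 176 *Il12b* UMIs. With these 8 and 5 cells left out, an alternative added after the values were seen, the summed log2 ratio of the list went from -0.78 to 0.32 and its median from -1.05 to 0.13. The list was at 19625 and 3745 CPM in the mature cells and at 1219 and 1516 CPM in the remaining 74 and 99 cells. The split used *Ccr7* and *Fscn1*, which are on the list, so these values are a description. In Cd209a cells, which come from the same libraries, 6 of 62 and 9 of 80 had 2 or more *Ccr7* and *Fscn1* UMIs, and *Il12b* was at 0 UMIs in both libraries.

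In the 8 mature *Cre*- cells the type 1 list summed to 4706 CPM against 7559 CPM in the other 74, and in the 5 mature PHDTiEC cells to 4987 against 7835 CPM. Of these 5, 1 cell of 38885 UMIs held 30 UMIs of 5 tubular genes, 2 *Ccr7* UMIs and only 73 UMIs of the type 1 list. Another PHDTiEC cell held 3 *Ccr7* and 18 *Ly6d* UMIs, and 1 *Cre*- cell of 19542 UMIs held 3 *Ccr7* UMIs. None of these cells had an *Il12b* or *Ccl22* UMI, so the name mature rests on *Ccr7* alone in them. *Irf8* stood at 1395 against 1245 CPM for *Cre*- and at 768 against 1335 for PHDTiEC. *Rab7b*, a late endosomal GTPase, was at 36.0 against 260 CPM for *Cre*-, *Tlr3* at 45.0 against 213 and *Naaa*, a lysosomal amidase, at 225 against 1075. The PHDTiEC values were 152 against 259 CPM for *Rab7b*, 171 against 216 for *Tlr3* and 341 against 971 for *Naaa*. Of the 10 *Cre*- cells with *Clec9a* alone, 3 were mature. In 5 of the 8 mature *Cre*- cells the rule's genes came to 2 or 3 UMIs, close to its limit. With 3 UMIs of *Xcr1* and *Clec9a* required, the list's summed log2 ratio was -0.44.

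**Figure D4:**
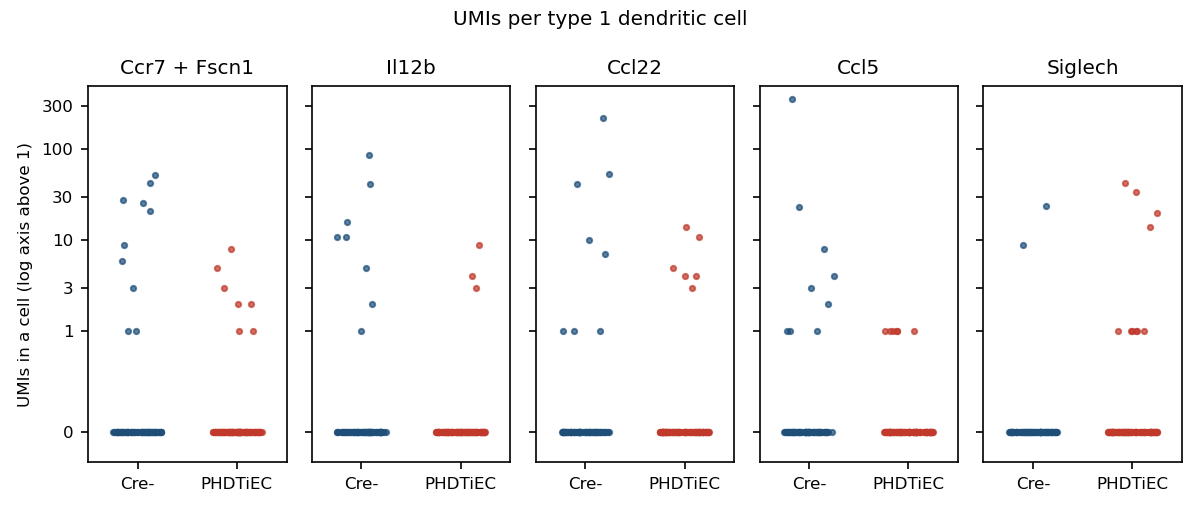
UMIs of 4 mature dendritic cell measures (Ccr7 and Fscn1 summed, Il12b, Ccl22, Ccl5) and of Siglech in each type 1 dendritic cell, on an axis that is logarithmic above 1. Most cells are at 0 in both libraries, and single Cre- cells reach 362 Ccl5, 224 Ccl22 and 88 Il12b UMIs.

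Another small group of cells carried genes of plasmacytoid dendritic cells, which also express *Irf8*. In the *Cre*- library 2 cells held 9 and 24 *Siglech* UMIs, and in the library labelled PHDTiEC 4 cells held 14, 20, 34 and 43. All 6 had *Clec9a* (2 to 4 UMIs) but no *Xcr1*, *Itgae*, *Tlr3* or *Rab7b* UMI, and all had *Ccr9* and *Ly6d*. Their *Irf8* was at 3394 and 3154 CPM. The markers thus go against the name for these 6 cells, which were chosen after the values were seen. The 5 plasmacytoid markers summed to 170 and 302 CPM over all type 1 cells. Without these 6 cells the sums were 70.3 and 66.3 CPM. In Cd209a cells the same markers summed to 158 and 537 CPM. There, 1 of 62 and 7 of 80 cells held 5 or more *Siglech* UMIs, so such cells were not particular to the type 1 set.

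Interferon-induced genes were mixed. Of 25 compared, 12 were lower, 1 higher and 12 within 1.5-fold in the library labelled PHDTiEC, with a median of -0.43 beside 0.05 for all genes. Over all genes compared, 8.01% were lower and 12.5% higher. *Irf7*, a factor that amplifies the interferon response, was at 121 and 58.8 CPM, in 29 and 25 cells. *Ifit3* had 43 and 8 UMIs, of which 26 were in 1 *Cre*- cell. *Cxcl10* had 143 and 22, of which 116 were in 1 cell. *Cxcl9*, a ligand of CXCR3, was at 163 and 331 CPM, in 21 of 82 (25.6%) and 21 of 104 cells (20.2%), and 2 PHDTiEC cells held 126 and 124 of its UMIs and 1 *Cre*- cell 94. Without the mature cells the list median was -0.47, and with each cell thinned to 2000 UMIs it was 0.03.

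Among the other chemokines and cytokines, *Ccr2*, the receptor for entry from blood, was at the same level in both libraries (340 CPM in each). *Il1b* was at 282 and 362 CPM in type 1 cells and at 3030 and 2527 CPM in Cd209a cells. *Cxcr4*, the receptor for CXCL12, had 14 and 51 UMIs, in 13 of 82 and 26 of 104 cells (log2 ratio 1.54, 0.66 to 2.51). *Il10* was at 0 UMIs in both libraries. The list of 25 had 18 genes compared, of which 3 were higher, 6 lower and 9 within 1.5-fold. Higher and lower genes were 12.5% and 8.01% of all genes compared.

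Cell cycle genes were somewhat higher in the library labelled PHDTiEC with all UMIs counted, but not with each cell thinned. Of 24, 7 were higher and none was lower, beside 12.5% higher and 8.01% lower among all genes compared, with a median of 0.22. *Top2a* was at 83.3 and 141 CPM and *Mki67* at 53.4 and 89.1 CPM. The share of cells with a UMI of either did not follow. It was 25.6% (16.6% to 36.4%) and 26.9% (18.7% to 36.5%), and after thinning 11.1% and 9.62%. In proximal tubule barcodes it was 5.12% and 4.10%. Cd209a cells had shares of 24.2% and 26.2%. With each cell thinned to 2000 UMIs, the *Mki67* log2 ratio was -0.45, so no order is read from these levels.

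Immediate early and stress genes had a median of 0.30, with 3 of 19 higher, beside 12.5% of all genes compared, and none lower. *Atf3* was at 254 and 492 CPM (log2 ratio 0.95, 0.76 to 1.15) and *Dusp1*, a phosphatase that limits MAP kinase signalling, at 300 and 575 CPM (0.94, 0.76 to 1.12). *Dnajb1*, a heat shock co-chaperone, was at 31.6 and 57.5 CPM. *Fos* was at 1285 and 1801 CPM and *Jun* at 509 and 453. Without the mature cells the list median was 0.29. These genes also respond to tissue dissociation, whose part was not tested.

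HIF target and glycolysis genes did not pass 1.5-fold in any of the 18 compared, beside 12.5% higher and 8.01% lower among all genes compared. Their median was 0.07, and that of all genes 0.05. *Ldha* was at 368 and 338 CPM, *Pgk1* at 182 and 176 CPM and *Slc2a1*, the glucose transporter, at 16 and 29 UMIs. *Hk2* came nearest, at 53.4 and 80.1 CPM (0.58, 0.14 to 1.04), with a UMI in 26 of 82 and 54 of 104 cells. Of the floxed genes, *Egln1* had 34 and 45 UMIs in type 1 cells (log2 ratio 0.08, -0.60 to 0.77), *Egln2* 27 and 38 (0.17, -0.58 to 0.94) and *Egln3* 0 and 2. The counts do not show the deleted exons, since reads lie near the 3′ end, and they are no check of the genotype.

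Most growth factor receptor and adhesion genes, like most of all genes compared (12.5% higher and 8.01% lower), lay within 1.5-fold. Of 15 growth factor and development genes, 12 were within it, with *Kit* at 88.2 and 89.1 CPM, *Bcl11a* (30 and 60 UMIs) above it, and *Nfil3* (50 and 32 UMIs) and *Csf1r* (24 and 7 UMIs) below. All 9 adhesion genes compared were within it, *Itgb7*, the partner chain of CD103, at 133 and 146 CPM. Of 9 sensor genes compared, 6 were within it. *Ddx58* was higher (8 and 24 UMIs), and *Tmem173*, which encodes STING, and *Zbp1* were lower (71 and 49 and 52 and 39 UMIs).

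**Figure D5:**
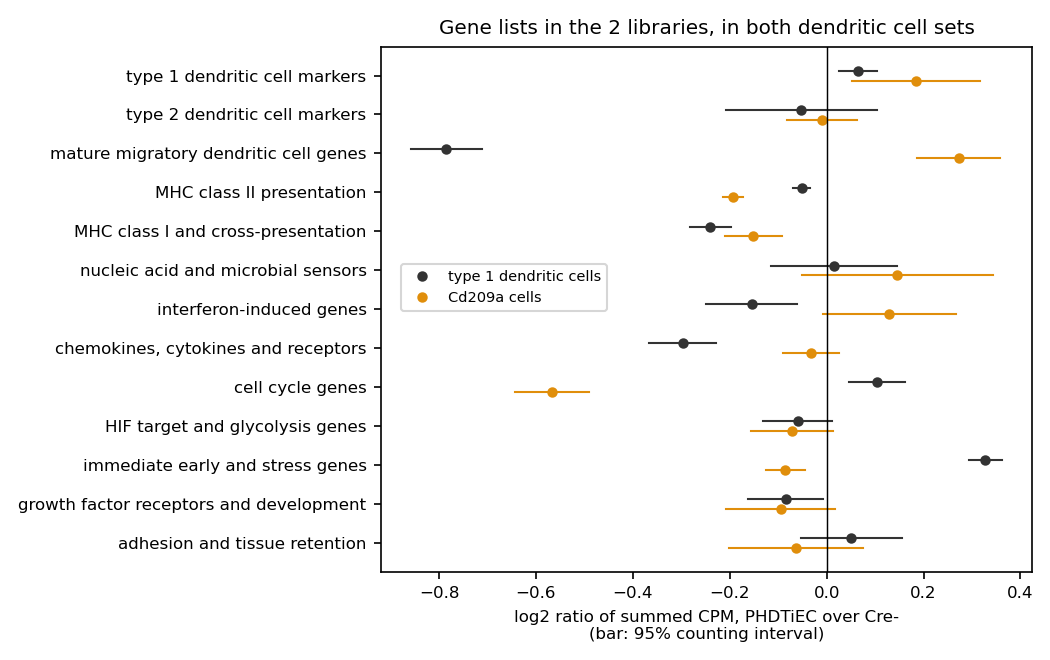
Log2 ratio of the summed CPM of each gene list, PHDTiEC over Cre-, in type 1 dendritic cells (black) and in Cd209a cells (orange), with bars for the 95% counting interval. The mature list stands at -0.78 in type 1 cells and 0.27 in Cd209a cells, and the cell cycle list at 0.10 and -0.57. Without the mature type 1 cells, which are included in the drawing, the mature list stood at 0.32 in type 1 cells.

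The 10 genes that stood highest in the library labelled PHDTiEC, among those with at least 100 UMIs, were *Klk1*, *Spp2*, *Miox*, *S100g*, *Maf*, *Akr1c21*, *Cxcl2*, *Hes1*, *Pigr* and *Ass1*. Several are genes of tubular epithelium, and the cell richest in each, not the same one for *Klk1* as for the other two, held 91.4% of the PHDTiEC UMIs of *Spp2*, 83.6% of *Miox* and 48.8% of *Klk1*. *Klk1* UMIs also lay in the cells with 5 or more *Siglech* UMIs, 14 of 28 for *Cre*- and 39 of 293 for PHDTiEC. The marker lists of the proximal tubule summed to 139 and 274 CPM in type 1 cells and those of the distal nephron to 401 and 656 CPM. Cells with over 30000 UMIs numbered 5 and 4, and 1 PHDTiEC cell of 74388 UMIs held 224 UMIs of 5 tubular genes. With barcodes holding 3 or more UMIs of other lineages left out (9 and 16 cells), the genes higher by 1.5-fold numbered 477 rather than 1074 and those lower 1181 rather than 687, and *Klk1*, *Cxcl2*, *Hes1* and *Pigr* changed sign. The part of tubular RNA in the other values was not tested. The 10 lowest genes were *Ccl5*, *Il12b*, *Ccl2*, *Ccl22*, *Vcam1*, *Cxcl10*, *Ccr7*, *C3*, *Ms4a6c* and *Relb*. For *Ccl2* and *Vcam1*, 1 *Cre*- cell held 90.9% and 62.9% of the UMIs, and both genes, with *C3*, changed sign in the same alternative.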

How the data were processed

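Libraries from 1 postischemic kidney per genotype were made with the 10X Genomics Chromium 3′ kit. The authors aligned reads to mm10 with Cell Ranger (version 4 per the file headers) and deposited raw UMI counts for 6794880 barcodes of each library, unfiltered and not normalized. The files held 136004367 and 146758812 UMIs. The filters of the study were applied, the rule was applied to each barcode, and counts were summed per library and cell set as UMIs per 1000000 (CPM). Ratios are log2 ratios of CPM. Sums have exact Poisson intervals, shares Clopper-Pearson intervals and ratios exact binomial intervals of the split of counts. A sum of 0 was set to a floor of 3 UMIs, and no ratio was formed with both sums at or below it. Named genes were the rule's genes, the floxed genes, the lists, the 10 highest and 10 lowest between libraries, and the 15 highest and 15 lowest between cell sets, without mitochondrial, ribosomal protein and haemoglobin genes. The members and lists were chosen with earlier results of these data known. Doublets were kept. As an alternative, the 6.91% and 7.57% of barcodes with the highest scores against simulated doublets were removed (scanpy 1.11.5). Other alternatives used edgeR 4.0.16 for TMM factors, thinning to 2000 UMIs, and a subtracted profile of barcodes under 100 UMIs. Intervals and ratios were tested on simulated data. Python 3.11.15 and scipy 1.17.1 were used. Gene positions are from GENCODE vM21. Without a strand setting in the sources, overlapping and antisense genes cannot be told apart. One gene of the interferon list is not reported here.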

Additional observations from a re-analysis of the deposited data

Results flagged for a closer look

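For 3 gene lists the summed log2 ratio, PHDTiEC over *Cre*-, had opposite signs in type 1 dendritic cells and in Cd209a cells, with counting intervals on either side of 0. Mature migratory genes stood at -0.78 in type 1 cells and at 0.27 in Cd209a cells. Without the 8 *Cre*- and 5 PHDTiEC mature type 1 cells, the type 1 value was 0.32, of the same sign as in Cd209a cells. That split used genes of the list. The counting interval does not cover UMIs gathered in few cells, and 1 *Cre*- cell held 362 of the 405 *Ccl5* UMIs. Cell cycle genes stood at 0.10 and -0.57, and immediate early and stress genes at 0.33 and -0.085. With 1 library per genotype the difference between the cell sets was not tested.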

How the results depend on the processing

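No paired analysis was possible because each genotype is 1 library, and no replicate could be left out. Of the recomputed values, 2295 stayed near the main value, 444 moved and 26 changed sign. Near meant within 1.5-fold for gene counts and list medians, and inside the counting interval for the rest. A small value could thus change sign and still count as near. Sign changes were counted only for values past their fold limit, so the list medians of interferon (-0.43, and 0.03 after thinning) and cell cycle genes (0.22, and -0.070) are not among them. The ratio of shares ran from 0.993 to 1.27. The summed log2 ratio of mature genes was -0.44 with 3 *Xcr1* and *Clec9a* UMIs required, -0.60 with 1, -0.52 without barcodes of other-lineage UMIs, -0.99 without barcodes over 30000 UMIs, -0.94 as a mean over barcodes, -0.93 after ambient subtraction, -0.98 after thinning, and 0.32 (list median 0.13) without mature cells. Type 1 markers over Cd209a cells, 2.74 in the *Cre*- and 2.62 in the PHDTiEC library, were 2.72 (PHDTiEC) with 3 UMIs, 2.31 and 2.31 with 1, 2.94 (*Cre*-) without doublets, 2.89 and 2.87 without other-lineage UMIs, 2.92 and 2.81 without deep barcodes, 2.95 and 2.72 as means, 3.20 and 2.95 after ambient subtraction, and 3.05 and 2.71 after thinning. Genes higher in PHDTiEC (1074) became 477 without other-lineage UMIs, 303 thinned and 2163 with no count minimum. Lower genes (687) became 1181, 239 and 1496, and 1328 after ambient subtraction. Genes higher in type 1 than in Cd209a cells (259) became 911 with 1 UMI, 436 after ambient subtraction, 71 thinned and 514 with no minimum, and lower genes (342) became 119 thinned and 576 with no minimum. Sign changes: *Hes1* -0.57 with 3 UMIs; *Akr1c21* -0.077, *Cxcl2* -0.12, *Maf* -0.031, *Mmp12* 0.32 and *Retnla* 0.15 (both against Cd209a cells, *Cre*-) with 1 UMI; *Ccl2* 0.16 without doublets. Without other-lineage UMIs, *Ccl2* was 0.094, *C3* 0.79, *Cxcl2* -0.83, *Hes1* -2.79, *Klk1* -0.28, *Pigr* -3.11, *Vcam1* 0.35, and *Spink8* and *Sprr2f* -0.21 (against Cd209a cells, PHDTiEC). Without deep barcodes, *Ccl2* was 0.25, *C3* 1.86, *Vcam1* 0.16, *Spink8* -0.43 and *Sprr2f* -0.34. The type 2 list median was 0.092 after ambient subtraction and 0.17 thinned, and *Mki67* -0.45 thinned. The causes were not tested. The alternatives without mature, *Siglech* or deep cells were chosen after seeing the data.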
